A study of Homo sapiens with 9 samples.

Results

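The cytosolic ribosomal protein genes were examined in HCT116 cells, a human colorectal carcinoma line. They were the table's rows named RPL or RPS with a number, with or without a closing A, L, X, AL or L1, together with RPLP0, RPLP1, RPLP2 and RPSA. This gave 84 of 33861 genes. Of these, 46 encode proteins of the large subunit, 31 encode proteins of the small subunit and 7 are paralogues that carry L or L1 in their names (RPL3L, RPL7L1, RPL22L1, RPL26L1, RPL36AL, RPL39L and RPS27L). The gene lists and pairs used below were chosen with earlier results of these data known.

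RNA sequencing gave 9 libraries from 3 groups of HCT116 cells, 3 libraries per group. The first group, labelled NC and treated here as the control, had no stated cytokine. The second group received 100 ng/mL activin A for 5 days, and the third received the same activin A exposure and then 20 ng/mL HGF for another 5 days. All groups are the same line, grown in DMEM with serum, and ribosomal RNA was depleted from total RNA before sequencing. No group was grown for the added 5 days without HGF, so that HGF and the longer culture cannot be told apart. The labels do not say whether activin A stayed in the medium with HGF, nor how long NC cells were cultured. They do not say either whether the 3 libraries of a group came from separate cultures, so p-values measure only the spread between these libraries.

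A ribosome joins a small subunit, which reads the mRNA, to a large subunit, which forms peptide bonds, and nearly every ribosomal protein is present once per particle. The mRNAs of these proteins are among the most abundant of a growing cell. They typically begin with a C followed by a run of pyrimidines, the 5′ terminal oligopyrimidine (TOP) tract, through which the mTOR pathway and LARP1 control their translation and stability. Activin A signals through SMAD proteins, and HGF through the receptor tyrosine kinase MET.

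The starts of these genes are shown first, because the shared tract is the feature that marks the family. Each line gives 30 bases of RefSeq sequence (GRCh38.p14), 12 before the annotated start and 18 from it, read 5′ to 3′ on the gene's strand. Capitals mark the unbroken run of C or T that begins at the start base. The first 8 lines are members whose fitted values are described in detail below, and the last 3 are members without a C at the start.
RPS12 (chr6:132814557-132814586, plus strand): tgcggatgaggcCTCTTTCCCTgccgccgc
RPS21 (chr20:62387091-62387120, plus strand): gactagctgcttCCTTTCTCTCTCgcgcgc
RPL13 (chr16:89560670-89560699, plus strand): cggggccgcttcCTTTCCgctcggctgttt
RPL36 (chr19:5690283-5690312, plus strand): cgcggcgccagcCCTTCCgccacggccgtc
RPL38 (chr17:74203666-74203695, plus strand): ggaagtctcgttCTTTTTCgtccttttccc
RPS24 (chr10:78033851-78033880, plus strand): cgaatcgtggttCTCTTTTCCTCCTTggct
RPL7A (chr9:133348206-133348235, plus strand): caattccctttcCTTTCTCTCTCCTCCCgc
RPL36A (chrX:101390999-101391028, plus strand): gcctcgcggtttCTTTCTTTCCgcgccgat
RPS28 (chr19:8321484-8321513, plus strand): ccgaagcacgtgactcctctccgccagacc
RPS27L (chr15:63157460-63157489, minus strand): ttgatgccgagcgcagatcgcttgcagctt
RPL26L1 (chr5:172958717-172958746, plus strand): cttccaggggtcggcgaacgaaacgcggag

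Of the 84 genes, 67 were matched to the RefSeq table of gene starts. The start base was C in 48 of the 67 (71.6%), against 4091 of all 27305 starts in that table. A C followed by at least 4 more pyrimidines was found in 44 of the 67 (65.7%), against 4.1% of all starts. A run of at least 8 pyrimidines from the start base was found in 35.8%, against 1.8%. The tract is therefore a property of most, not all, of these annotated starts, and an annotated start is 1 position for each gene.

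Other short words were counted on both strands in 300 bases, 250 before to 50 after the start. CCGGAAG, a word of ETS-family binding sites, occurred in 34.3% of the matched members and in 10.7% of all starts. CTTTCC occurred in 46.3% against 26.1%, and this word can lie inside the pyrimidine tract. AAGATGGC, a word of YY1 sites that can hold the start codon, occurred in 10.4% against 3.1%. The E-box CACGTG occurred in 4 of 67 (6.0% against 7.4%), namely RPL13A, RPL19, RPL7L1 and RPS28, and TATAAA in 6 of 67, against 3281 of 27305 starts. The CCGGAAG word is shown for 3 members with its surroundings, in capitals, since these members reappear below.
RPS21 (chr20:62387029-62387058, plus strand, 63 bases before the start): ggtggcgtgacCCGGAAGcgctcgccgagg
RPL27A (chr11:8682716-8682745, plus strand, 65 bases before the start): ggcctctgtgaCCGGAAGtgaggcgttttg
RPS27L (chr15:63157478-63157507, minus strand, 19 bases before the start): cagcttctatcCCGGAAGttgatgccgagc

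Library depth was 57453977 to 77016167 counts. CPM below are counts scaled to library size with the TMM factors of edgeR, whose range was 0.783 to 1.166, and log2 fold changes are those of the edgeR quasi-likelihood test, given with their standard error. A gene was called when its Benjamini-Hochberg adjusted p over 20988 tested genes was under 0.05. The epithelial markers EPCAM, KRT8, KRT18, KRT19 and CDH1 were expressed in all 9 libraries (9.77 to 438 FPKM), whereas CDX1, CEACAM5 and VIL1 stayed at or below 0.140 FPKM. Of the markers of other cell types reported here, PTPRC, CD3E, COL1A2, PECAM1, VWF and ALB stayed at or below 0.260 FPKM, whereas COL1A1 (2.22 to 5.80), ACTA2 (2.05 to 3.60) and CD68 (0.510 to 8.38 FPKM) were detected. Their part in the results was not tested.

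Of the 84 members, 83 passed the filter on low counts. RPL39L was left out, with 4, 0 and 12 counts in the 3 NC libraries and 0 in the other 6. A count of 0 allows up to 3 counts, 0.0399 to 0.0551 CPM in those libraries, by counting error only.

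The members took 6.89% ± 0.191 (SD, n = 3) of all counts in NC cells, 6.59% ± 0.822 in activin-treated cells and 9.61% ± 0.819 in activin + HGF-treated cells. The values were 6.81, 7.11 and 6.75% in the NC libraries, 5.81, 7.45 and 6.50% with activin, and 10.5, 8.88 and 9.46% with activin + HGF. The NC and activin libraries overlapped, whereas each activin + HGF library was above all 6 others. Both subunits showed this. The large subunit genes took 3.51 to 4.49% and the small subunit genes 2.27 to 2.91% of counts in the first 6 libraries, and 5.47 to 6.50% and 3.37 to 3.96% in the activin + HGF libraries. The share of mitochondrially encoded RNA was 15.1 to 17.2% in the treated libraries and higher, up to 20.1%, in the NC libraries, and its part in these shares was not tested.

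Replicate spread differed between groups. The median coefficient of variation over the 83 tested members was 6.91% in NC, 22.7% with activin and 20.3% with activin + HGF, and was below that over all tested genes in each group (14.7% in NC and 27.0% with activin + HGF). In the activin group, replicate 2 held the highest value for 71 of 83 members and replicate 1 the lowest for 67. In the activin + HGF group, replicate 1 held the highest value for 76 of 83 members. Members of 1 library therefore deviated together, and the results below are also given without these libraries.

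**Figure D1:**
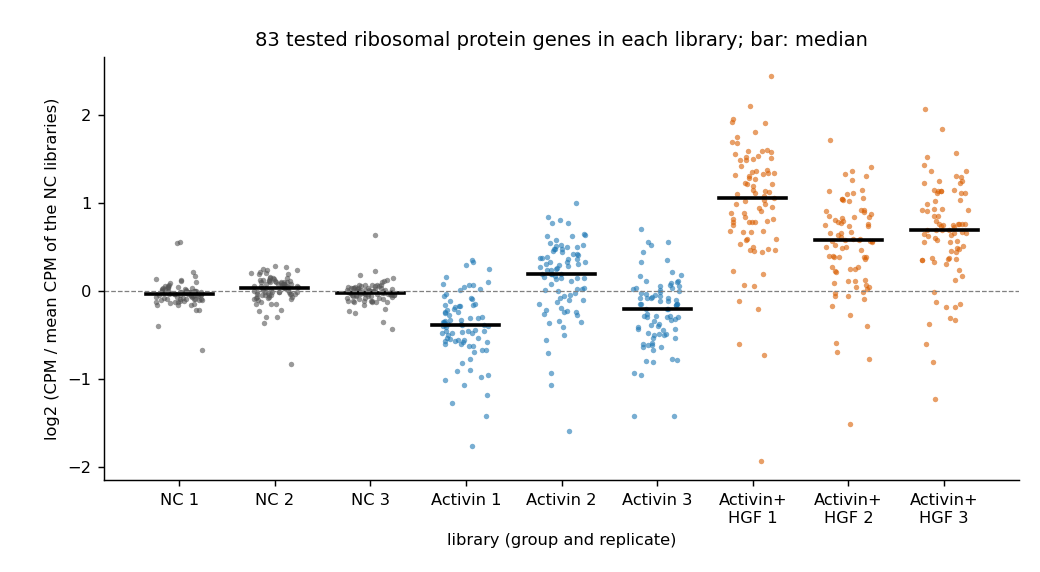
Each point is 1 of the 83 tested ribosomal protein genes in 1 library, as log2 of its CPM over its mean CPM in the NC libraries (vertical axis), with the median of each library as a black bar. The library medians were -0.03 to 0.04 for NC, -0.39, 0.20 and -0.20 for activin, and 1.06, 0.58 and 0.70 for activin + HGF.

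The comparison of activin-treated with NC cells addressed the first step of the treatment. No member was called higher and 7 of 83 (8.43%) were called lower, where 9.58% of all tested genes were called higher and 8.41% lower. The share of members called lower was thus near that of all tested genes. Among other genes with a mean of at least 100 CPM, a level more like that of the members, both shares were larger. There, 20.0% were called higher and 17.3% lower. At a fold of at least 2 as well, 3 members were lower and 0 higher, beside 4.62 and 6.78% of all tested genes. The 7 members that fell were RPL36AL, RPS27L, RPS24, RPL23A, RPL19, RPL7A and RPL38, by 0.67 to 1.58 on the log2 scale. The median log2 fold change of the members was -0.10, beside 0.02 over all tested genes. It was 0.05 without activin replicate 1 and -0.28 without activin replicate 2, the ends of its range over the libraries left out. At this replication most members, 76 of 83, showed no detectable difference.

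RPL36AL, an autosomal paralogue of the X-linked RPL36A, fell the most (chromosome 14, 49618530 to 49620626 in the table, whose coordinates match GRCh38). Its CPM were 171, 159 and 169 in NC libraries, 49.1, 55.4 and 62.0 with activin, and 144, 97.4 and 95.1 with activin + HGF. The activin libraries lay below all others, and the mean fell to 0.334 of the NC level by the fit (log2 fold change -1.58, SE 0.20, adjusted p = 0.000559). With HGF it rose 2.02-fold (adjusted p = 0.0115) and stayed lower than in NC cells (log2 fold change -0.57, SE 0.19, adjusted p = 0.0456). The rise was lost without activin replicate 1 (adjusted p = 0.0662) and under 1 of 14 other settings. The last difference was lost without any 1 of the NC libraries or without activin + HGF replicate 2 or 3 (adjusted p up to 0.145). It was also lost under 3 of 14 other settings.

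RPS24, a small subunit protein needed for rRNA maturation and a gene mutated in Diamond-Blackfan anaemia, held 973, 870 and 962 CPM in NC cells (chromosome 10, 78033760 to 78040716). With activin its CPM were 413, 447 and 537, and with activin + HGF they were 973, 772 and 722. The activin libraries again lay below all 6 others. The fall was 2.01-fold (log2 fold change -1.01, SE 0.17, adjusted p = 0.00304). The rise with HGF was 1.77-fold (adjusted p = 0.0150; 0.0873 without activin replicate 1, and also lost under 7 of 14 other settings), and activin + HGF-treated and NC cells did not differ beyond their spread (log2 fold change -0.19, SE 0.17, adjusted p = 0.441).

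RPS27L, a paralogue of RPS27, fell 2.05-fold with activin (log2 fold change -1.03, SE 0.17, adjusted p = 0.00227). Its CPM were 53.1, 57.1 and 62.8 in NC cells, 23.9, 30.3 and 30.2 with activin, and 38.1, 35.6 and 37.9 with activin + HGF. The 3 groups did not overlap, although the change with HGF missed the threshold (log2 fold change 0.40, SE 0.16, adjusted p = 0.129). RPL36AL, RPS24 and RPS27L were the members called lower with activin whichever library was left out.

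The other 4 were large subunit genes. RPL23A, which lies at the exit of the peptide tunnel, held 1356, 1389 and 1320 CPM in NC cells and 670, 830 and 852 with activin (log2 fold change -0.79, SE 0.18, adjusted p = 0.0144). RPL38 held 558, 693 and 615 CPM in NC cells, 316, 493 and 362 with activin, and 1267, 880 and 981 with activin + HGF. RPL38 was the one member that was lower with activin than in NC cells (adjusted p = 0.0480) and higher with activin + HGF than in NC cells (log2 fold change 0.75, SE 0.21, adjusted p = 0.0210). The latter call was lost without NC replicate 1 or 3 or activin + HGF replicate 1 (adjusted p up to 0.0874), and under 2 of 14 other settings.

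RPL19 and RPL7A fell with activin by 0.71 (SE 0.19, adjusted p = 0.0298) and 0.68 (SE 0.21, adjusted p = 0.0454) on the log2 scale. In activin + HGF-treated cells their CPM, 1401 to 1855 for RPL19 and 1561 to 2002 for RPL7A, overlapped the NC values of 1572 to 1599 and 1645 to 1880. These 4 calls rested on single libraries. That of RPL23A was lost without NC replicate 1 or 2 or activin replicate 1 (adjusted p up to 0.0660). Those of RPL19, RPL7A and RPL38 were lost without any 1 library of the comparison other than activin replicate 2. The adjusted p was then up to 0.101, 0.146 and 0.168. Those of RPL7A and RPL38 were also lost without activin + HGF replicate 2 or 3, and under 5 of 14 other settings. Without activin replicate 2, 13 members were called lower, and without 1 of the other libraries at least 3. Scaled by library totals, 4 members were called higher and 8 lower with activin, in place of 0 and 7. The share of all tested genes called under these alternatives is not given here. Shifts particular to the members therefore cannot be told apart from shifts over all genes.

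The comparison of activin + HGF-treated with activin-treated cells addressed the second step. Here 59 of 83 members were called higher and 0 lower, where 7.41% of all tested genes were called higher and 5.45% lower. Of these, 33 rose at least 2-fold, a size and call that 3.87% of all tested genes met in this direction and 4.21% in the other. The median log2 fold change was 0.91, a 1.88-fold rise, beside -0.04 over all tested genes, and 80 of 83 estimates were above 0. The libraries of the groups did not overlap for 69 members, all higher with HGF, where 17.2% of all tested genes were separated in that direction.

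Among other genes with a mean of at least 100 CPM, a level more like that of the members, 320 of 1546 were called higher and 34 lower, and their median was 0.32. In bulk RNA, more of these transcripts per cell and less of other RNA cannot be told apart. Scaled by library totals, the median over all genes was -0.38 and that of the members 0.56. The distance of members from all genes was 0.94, beside 0.95 with TMM scaling. Since rescaling libraries shifts all genes nearly alike, this distance could hardly change and does not bear on the choice of scaling. With library totals, the count of members called higher was 47.

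**Figure D2:**
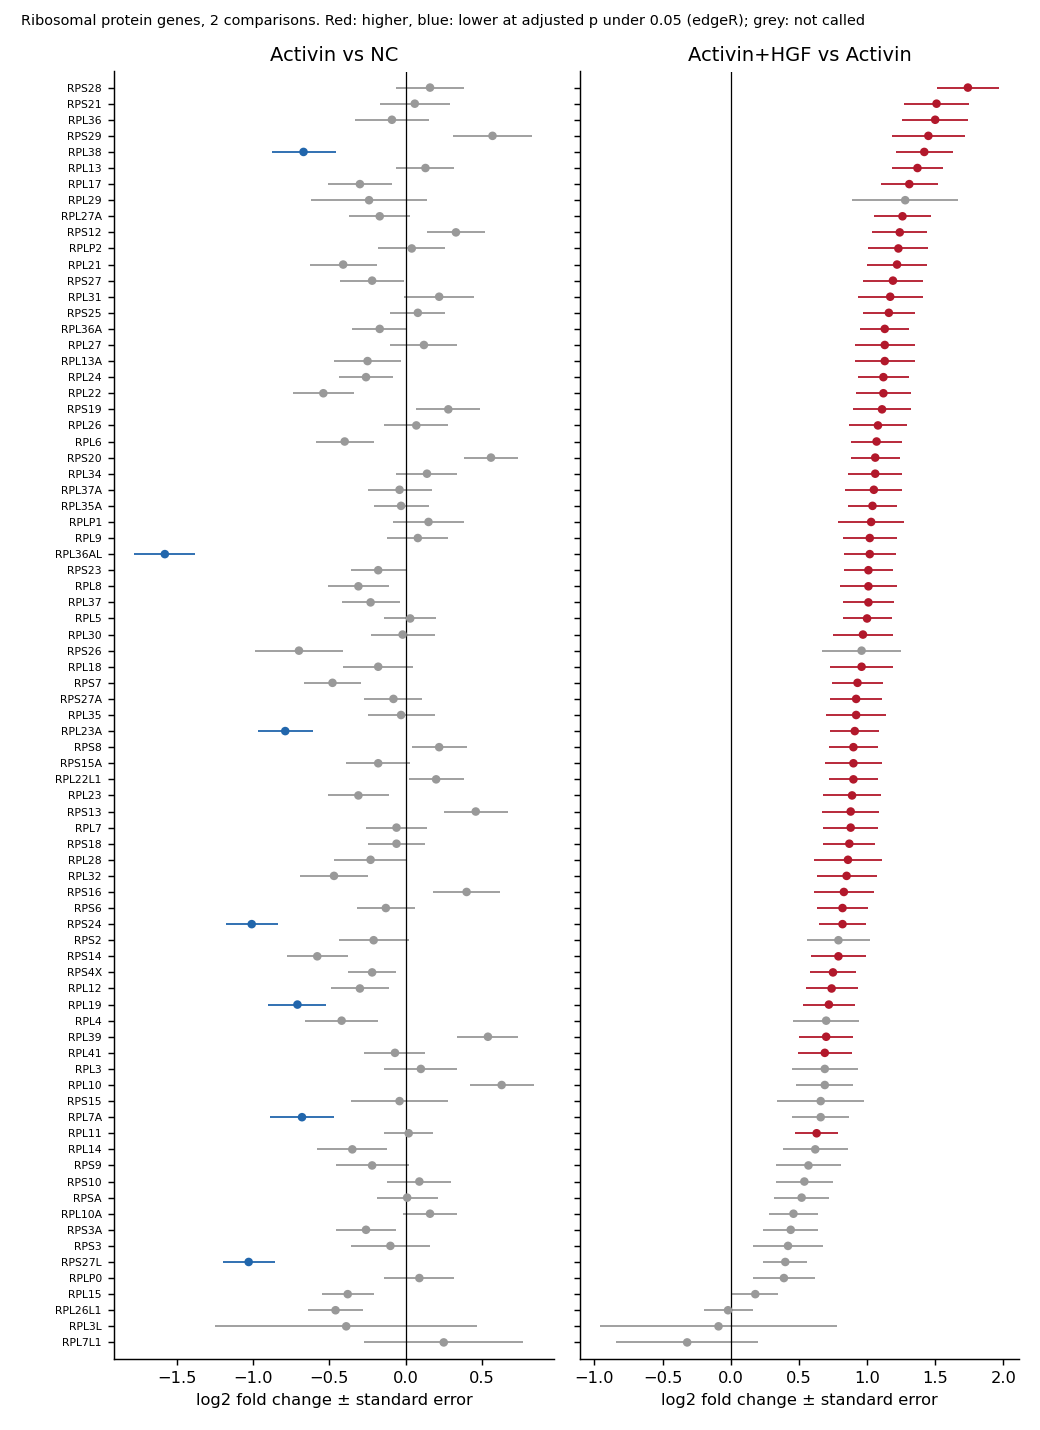
The log2 fold change of 79 tested members (points) with its standard error (lines), for activin against NC (left) and activin + HGF against activin (right), ordered by the right panel. The other 4 tested members, 1 of them called higher with HGF, are not reported here. In the left panel 7 genes are called lower (blue) and the rest are grey, whereas in the right panel 58 genes are called higher (red) and none lower.

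The count depended on the activin libraries. It was 15 without activin replicate 1, 29 without replicate 3 and 73 without replicate 2. It was 46 without activin + HGF replicate 1, the library with the highest values, and the median was then 0.78. Fitting only the groups compared gave 21. For these counts too, the share of all tested genes called in the same fit is not given. Over the single libraries left out, the median stayed between 0.74 and 1.08. The members called higher under each alternative scaling, filter and tool and without any 1 library were 15, namely RPS12, RPS20, RPS21, RPS25, RPS27, RPS28, RPL13, RPL17, RPL22, RPL24, RPL27A, RPL36, RPL36A, RPL38 and RPLP2. Each of the other calls was lost under at least 1 of them.

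Of the 46 large subunit genes, 37 rose with HGF (median log2 fold change 1.01), and of the 31 small subunit genes 20 rose (median 0.88). Of the 6 tested paralogues, 2 rose, RPL22L1 and RPL36AL (median 0.19). No member of either subunit had an estimate below 0.

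RPS28, a small protein of the small subunit head close to the mRNA exit, rose the most (chromosome 19, 8321158 to 8322946). It held 144, 156 and 148 CPM in NC cells, 124, 230 and 147 with activin and 643, 491 and 538 with activin + HGF. The last 3 lay well above the other 6, which overlapped each other. The rise with HGF was 3.34-fold (log2 fold change 1.74, SE 0.23, adjusted p = 0.00406), and activin alone gave a log2 fold change of 0.16 (SE 0.22, adjusted p = 0.689). As shown above, its annotated start base is an A that directly follows the word cacgtg, and a run of C and T begins at the next base.

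RPS21, RPS29 and RPS12 were the small subunit genes that came next. RPS21 held 186, 190 and 188 CPM in NC cells, 163, 243 and 183 with activin and 730, 390 and 559 with activin + HGF, a 2.85-fold rise with HGF (adjusted p = 0.00619). RPS29 held 135, 151 and 128 CPM in NC cells and 164, 247 and 204 with activin. Its activin + HGF values were 751, 349 and 582 CPM, a 2.74-fold rise (adjusted p = 0.00995; 0.0553 without activin replicate 1). The NC and activin libraries of RPS29 did not overlap, although that difference was not called (log2 fold change 0.57, SE 0.26, adjusted p = 0.167).

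RPS12 held 813, 808 and 809 CPM in NC cells, 853, 1165 and 1035 with activin, and 3065, 1943 and 2196 with activin + HGF. Its values increased from group to group without overlap, and the rise with HGF was 2.36-fold (log2 fold change 1.24, SE 0.20, adjusted p = 0.00623). It had the highest mean FPKM of all members, 1783.

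Of the large subunit genes, RPL36 rose 2.82-fold with HGF (adjusted p = 0.00688). Its CPM were 268, 304 and 290 in NC cells, 196, 385 and 228 with activin and 867, 711 and 705 with activin + HGF. RPL13 rose 2.59-fold (log2 fold change 1.37, SE 0.19, adjusted p = 0.00464). Its CPM were 1004, 1266 and 1033 in NC cells, 997, 1476 and 1133 with activin and 3557, 2935 and 2845 with activin + HGF. For both genes the activin libraries spanned the NC values.

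RPL38 rose 2.67-fold from its lowered activin level (adjusted p = 0.00539). RPL17 rose 2.48-fold (adjusted p = 0.00689) and RPL27A 2.40-fold (adjusted p = 0.00699). RPL29 showed a fold of similar size, 2.43, but was not called (adjusted p = 0.0541).

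**Figure D3:**
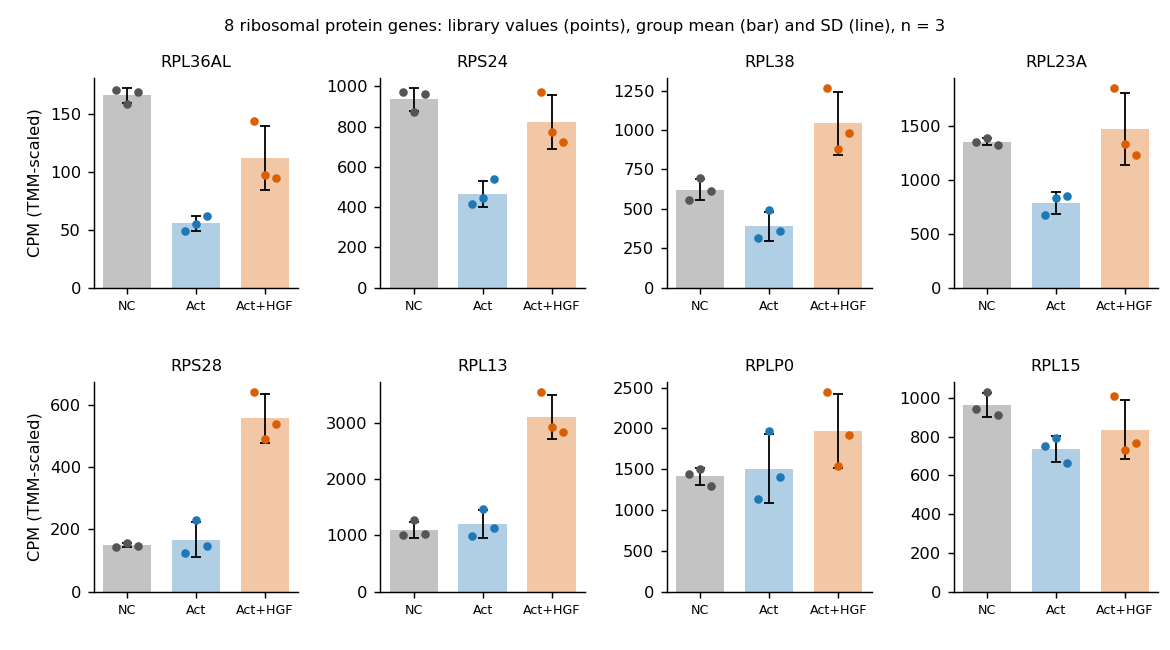
CPM of 8 ribosomal protein genes in each library (points), with the group mean (bar) and its SD (line, n = 3), on axes that start at 0. RPL36AL, RPS24, RPL38 and RPL23A dip with activin, RPS28 and RPL13 stand apart with activin + HGF, and RPLP0 and RPL15 overlap between activin and activin + HGF.

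The stalk of the large subunit recruits translation factors and is built from RPLP0 with dimers of RPLP1 and RPLP2. Its parts did not all pass the test. RPLP2 rose 2.34-fold with HGF (adjusted p = 0.00984), from 458, 817 and 502 CPM to 1623, 1254 and 1280. RPLP1 rose 2.05-fold (adjusted p = 0.0210), a call lost without activin replicate 1 or 3 or activin + HGF replicate 1 (adjusted p up to 0.0985). That call was also lost under 2 of 14 other settings. RPLP0, the scaffold, held 1140, 1965 and 1409 CPM with activin and 2447, 1544 and 1923 with activin + HGF, and these overlapped (log2 fold change 0.39, SE 0.23, adjusted p = 0.277). The difference between RPLP0 and its partners was not tested.

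RPL5 and RPL11, which with the smallest rRNA of the large subunit form a particle that binds MDM2, rose with HGF, by 1.00 (SE 0.18, adjusted p = 0.00884) and 0.63 (SE 0.16, adjusted p = 0.0311) on the log2 scale. The call of RPL5 was lost without activin replicate 1 (adjusted p = 0.0520), and that of RPL11 without activin replicate 1 or 3 or activin + HGF replicate 1 or 2 (adjusted p up to 0.131), without any NC library, and under 9 of 14 other settings. RPL5 held 799, 980 and 877 CPM with activin and 2196, 1456 and 1649 with activin + HGF. RPS6, the main substrate of S6 kinase in the small subunit, rose 1.77-fold (adjusted p = 0.0218). Its CPM went from 1108, 1456 and 1319 to 2928, 1854 and 2089. That call was lost without activin replicate 1 or 3 (adjusted p up to 0.108), without NC replicate 1 or 2, and under 2 of 14 other settings. RPSA, which is also known as a laminin receptor, held 1295, 2085 and 1452 CPM with activin and 2762, 1932 and 2225 with activin + HGF, and was not called (log2 fold change 0.52, SE 0.20, adjusted p = 0.118).

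The members that were not called with HGF numbered 24. They included RPL15 (log2 fold change 0.18, SE 0.17), RPL3 (0.69, SE 0.24) and RPS2 (0.79, SE 0.23, adjusted p = 0.0504). The paralogues RPL7L1, RPL26L1 and RPL3L had estimates at or below 0 (-0.32, -0.02 and -0.09).

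Activin + HGF-treated cells were also compared with NC cells, a comparison that shares its libraries with the other two. Of 83 members, 53 were called higher and 2 lower, where 16.4% of all tested genes were called higher and 15.0% lower. Among other genes with a mean of at least 100 CPM, 37.6% were called higher and 14.7% lower. The median log2 fold change was 0.79, beside -0.03 over all genes, and 28 members rose and 0 fell at least 2-fold, beside 11.3 and 10.2% of all tested genes. RPS29 rose 4.06-fold (log2 fold change 2.02, SE 0.27, adjusted p = 0.000494), RPS28 3.73-fold (adjusted p = 0.000282) and RPS20 3.09-fold (adjusted p = 0.000207). RPS21, RPS12, RPL13, RPL36, RPL31, RPS19 and RPS13 followed with log2 fold changes of 1.34 to 1.58. The members below NC were RPS27L (log2 fold change -0.63, SE 0.16, adjusted p = 0.0151) and RPL36AL, described above. The call of RPS27L was lost without NC replicate 3 or activin + HGF replicate 2 (adjusted p up to 0.0752). Without 1 library at a time the count called higher was 38 to 60.

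By mean CPM, activin + HGF was the highest group for 75 of 83 members, NC for 7 and activin for 1. The lowest group was activin for 50, NC for 30 and activin + HGF for 3. A total of 48 members were not called with activin and were higher with activin + HGF than in both other groups. The counts of group orders and call patterns in this paragraph were made for members only, without the share over all tested genes. RPS20, RPL10 and RPL39 were among the 7 of 83 members that lay above NC already with activin without overlap, where 20.9% of all tested genes did. None of these members was called higher with activin. RPL10 held 956, 1027 and 965 CPM in NC cells, 1235, 1978 and 1338 with activin and 2990, 2039 and 2315 with activin + HGF. Its fitted changes for the steps were similar, 0.63 (SE 0.21, adjusted p = 0.0634) and 0.69 (SE 0.21, adjusted p = 0.0547), and the sum of both was called (1.32, SE 0.21, adjusted p = 0.00132). A total of 18 members were called in none of the 3 comparisons, among them RPL3L, RPL4, RPL7L1, RPL14, RPL15, RPL26L1, RPL29, RPLP0, RPS2, RPS3, RPS3A, RPS9, RPS15, RPS26 and RPSA.

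The change with HGF varied with coding length among the members. Across the 83 tested members, Spearman's rho between the log2 fold change and the coding length of the principal transcript was -0.48, and it was -0.50 without activin + HGF replicate 1. With the whole length of the principal transcript in place of its coding length, rho over the members was weaker, -0.15. These points share the same 9 libraries, and members are not replicates. Of the 28 members with a coding length of up to 400 bases, 26 were called higher (median 1.06). Of the 31 with more than 400 and up to 600 bases, 24 were called higher (median 0.89), and of the 24 longer ones 9 were (median 0.70). Among other genes, 19.3% were called higher at up to 300 bases, and 20.4% above that and up to 400. The share was 12.5% at more than 400 and up to 600 bases. It was 10.7% in the next and 5.03% in the longest of 5 length ranges. Beyond 400 bases the share called higher thus fell with length in other genes too, from a lower level than in the members. RPS28, RPS29, RPS21 and RPL38, with 207, 168, 249 and 210 coding bases, were among the 5 largest rises. Among long members, RPL6 (864 bases) and RPL5 (891 bases) had log2 fold changes of 1.07 and 1.00, RPLP0 (951 bases) 0.39, and RPL3 (1209 bases) and RPL4 (1281 bases) 0.69 and 0.70. RPL41, with 75 coding bases the shortest, rose by 0.69 (adjusted p = 0.0465). That call was lost without activin replicate 1 or 3, activin + HGF replicate 1 or 2 (adjusted p up to 0.185) or any NC library, and under 11 of 14 other settings. RPL13 (633 bases) and RPL15 (612 bases) are of like length and had log2 fold changes of 1.37 and 0.18.

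The same direction was seen across other genes, where rho was -0.24 over the 14656 of 20905 genes with a coding length. With the whole length of the principal transcript it was -0.21. Their median log2 fold change was 0.43 at up to 300 bases and -0.12 in the longest of 5 length ranges. The part of transcript length in the change of the members was not tested. In the activin step, rho was -0.12 over the members and -0.06 over the other genes.

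**Figure D4:**
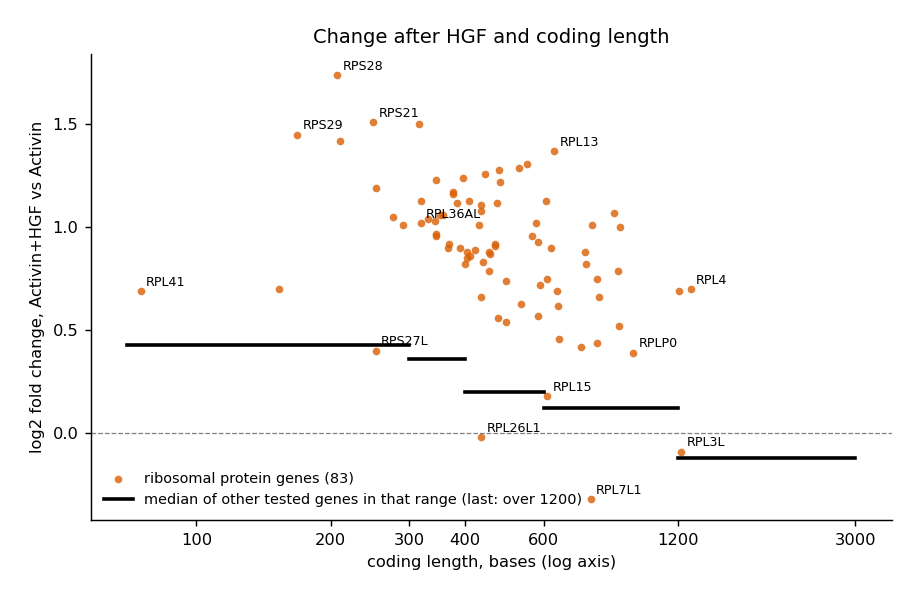
The log2 fold change of activin + HGF against activin (vertical axis) of the 83 tested members (points) by coding length in bases (horizontal axis, log scale), with the median of other tested genes in 5 length ranges as black lines. Short members such as RPS28, RPS29 and RPS21 lie highest, RPLP0 and RPL15 lie low, and most points lie above the median of other genes of like length.

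Members with the pyrimidine tract at the start and those without were set side by side. Of the 44 with a C and at least 4 further pyrimidines, 35 were called higher with HGF (median log2 fold change 1.02). Of the 23 with another annotated start, 13 were called higher (median 0.75). These are 79.5 and 56.5%, beside 7.41% of all tested genes. RPS28, RPS29 and RPL17 belong to the latter 23. So do the paralogues RPL7L1, RPL26L1, RPS27L and RPL36AL (log2 fold changes -0.32, -0.02, 0.40 and 1.02). The set with the tract holds the paralogue RPL22L1 (0.90), so that the sets also differ in their paralogues. The split rests on a single annotated start base for each gene, and in RPS28 a run of C and T begins at the next base. It therefore cannot show whether mRNAs without a tract rose, and the difference between these sets was not tested.

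The ratio of a paralogue to its partner within a library does not depend on library scaling. Both genes had a mean of at least 1 FPKM in 5 of the 8 listed pairs. The paralogue listed for RPL10 was not analysed here, and RPL3L and RPL39L were nearly silent. The 5 pairs and 3 comparisons gave 15 two-sided exact permutation tests. With 3 libraries against 3 the smallest possible p is 0.1, which is 0.150 after adjustment over the 15, so that none can pass 0.05.

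The log2 ratio of RPL36AL to RPL36A was 1.61, 1.58 and 1.57 in NC libraries. It was 0.28, -0.03 and 0.30 with activin and 0.15, -0.03 and 0.03 with activin + HGF. The ratio was lower by 1.40 with activin, without overlap (exact permutation p = 0.1), and the libraries with and without HGF overlapped (difference -0.13, exact permutation p = 0.400). The sign of this ratio depends on the lengths behind FPKM, 0.792 kb for RPL36AL and 4.65 kb for RPL36A, and its change does not. By mean CPM, RPL36AL lay below RPL36A in NC cells (166 against 325), and over all libraries it held 149 CPM per kb of principal transcript against 967. RPL36A itself was not called with activin (log2 fold change -0.17, SE 0.18, adjusted p = 0.576).

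The log2 ratio of RPS27L to RPS27 was -6.66, -6.55 and -6.44 in NC libraries, -7.18, -7.60 and -7.17 with activin and -8.39, -8.10 and -7.83 with activin + HGF. The 3 groups did not overlap. The log2 ratio of RPL26L1 to RPL26 was -2.96, -2.96 and -2.89, then -3.58, -3.37 and -3.47, then -5.25, -4.56 and -3.81, again without overlap between groups. For both pairs each exact permutation p was 0.1. In both pairs the paralogue lost ground at each step. In the second step the partners were called higher, RPS27 2.28-fold (adjusted p = 0.00975) and RPL26 2.11-fold (adjusted p = 0.0122). RPS27L was higher in that step as well, by a smaller fold of 1.32 without overlap, but was not called (adjusted p = 0.129). RPL26L1 stayed near its activin level (fold 0.989).

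RPL22L1 differed in direction. Its log2 ratio to RPL22 was -0.80, -1.02 and -1.03 in NC libraries, 0.04, -0.34 and -0.25 with activin and -0.46, -0.57 and -0.26 with activin + HGF. The activin libraries lay above NC (difference 0.76, exact permutation p = 0.1). RPL22 itself held 508, 479 and 600 CPM in NC cells and 281, 399 and 409 with activin, a difference that was not called (log2 fold change -0.54, SE 0.20, adjusted p = 0.0850). The ratio of RPL7L1 to RPL7 overlapped between all groups, and RPL7L1 varied from 22.1 to 129 CPM among the activin + HGF libraries.

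**Figure D5:**
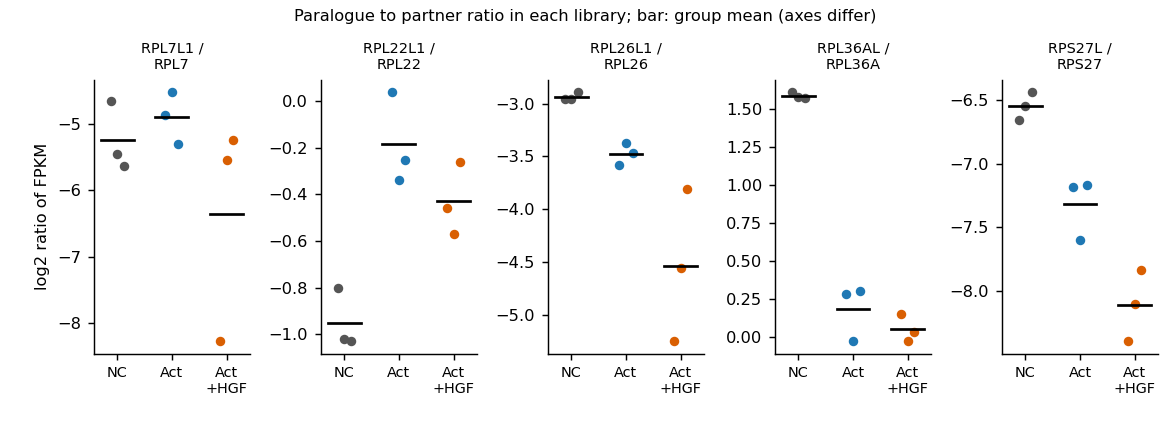
The log2 ratio of FPKM of each paralogue to its partner in each library (points) with the group mean (black bar), 5 pairs with separate vertical axes. RPL36AL/RPL36A falls from 1.58 to 0.18 with activin, RPS27L/RPS27 and RPL26L1/RPL26 fall at each step, RPL22L1/RPL22 rises with activin, and RPL7L1/RPL7 overlaps between groups.

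Levels between members can only be compared per length. By mean FPKM over the 9 libraries, RPS12 (1783), RPS2 (1077), RPL41 (976), RPL8 (960) and RPS18 (958) were the highest, and the last 3 differed by less than their spread between libraries. RPS27L (3.98), RPL7L1 (9.85) and RPL26L1 (20.6) were the lowest of those tested after RPL3L (0.0711), and RPS29 (24.3) came next. The length behind each FPKM value, recovered from counts and FPKM, was 0.749 to 11.5 kb and in the median 3.05 times the principal transcript. For RPS29 it was 11.5 kb, beside a principal transcript of 677 bases. By CPM per kb of principal transcript RPS29 moved from rank 79 to rank 57, so that the order between genes depended on the length used. Changes between groups did not, since this length is the same in every library.

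Ribosomal protein genes outside the naming rule included FAU and RACK1. FAU, which encodes the small subunit protein eS30 as a fusion, rose with HGF (140, 233 and 146 CPM with activin, 534, 312 and 406 with activin + HGF; log2 fold change 1.27, SE 0.25, adjusted p = 0.0123). RACK1 was not called in any comparison (log2 fold change with HGF of 0.46, SE 0.24).

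Of 13 other genes with TOP mRNAs, 8 rose with HGF (61.5%, beside 7.41% of all tested genes) and 0 fell (median log2 fold change 0.79), and 0 rose and 2 fell with activin (15.4%, beside 8.41%). EEF1A1, the elongation factor that brings aminoacyl-tRNA to the ribosome, went from 12930, 12299 and 14482 CPM to 35193, 21770 and 22309 (log2 fold change 1.00, SE 0.19, adjusted p = 0.0117). TPT1 rose by 1.07 (SE 0.21, adjusted p = 0.0127) and the initiation factor EIF4B by 1.23 (SE 0.28, adjusted p = 0.0222). Of 16 genes that control TOP mRNAs or S6 kinase, 1 rose with HGF, the mTOR activator RHEB (log2 fold change 0.66, SE 0.19, adjusted p = 0.0496), and 0 fell. This is 6.25%, below the 7.41% of all tested genes. LARP4, which binds poly(A) tails, fell with activin (log2 fold change -1.70, SE 0.32, adjusted p = 0.00538). For activin + HGF against NC, 2 of the 16 were higher and 4 lower (of all tested genes, 16.4% were higher and 15.0% lower). The higher ones were EIF4EBP1 (1.02, adjusted p = 0.00594) and RHEB (0.93, adjusted p = 0.00561), and the lower ones were LARP4 (-2.03, adjusted p = 0.00127), TSC1 (-1.29, adjusted p = 0.00943), RPS6KB1 (-1.22, adjusted p = 0.0149) and MTOR (-1.01, adjusted p = 0.00565). LARP1 was not called in any comparison. MYC varied from 11.1 to 156 CPM among the activin libraries and was not called.

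Of the list around MDM2, which RPL5 and RPL11 bind, CDKN1A rose with activin (log2 fold change 1.17, SE 0.20, adjusted p = 0.00303). MDM2 was lower with activin + HGF than in NC cells (-0.54, SE 0.18, adjusted p = 0.0473), and MDM4 was not called.

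The mitochondrial ribosomal proteins belong to another ribosome. Of 78 tested genes, 32 fell with activin (41.0%, beside 8.41% of all tested genes) and 1 rose (median log2 fold change -0.63), and 19 rose with HGF (24.4%, beside 7.41%) and 0 fell (median 0.27). MRPL32 fell by 1.45 with activin (SE 0.16, adjusted p = 0.000343) and MRPS16 rose by 2.04 (SE 0.48, adjusted p = 0.0157). MRPS34 rose by 1.78 with HGF (SE 0.25, adjusted p = 0.00479). The difference between the genes of both ribosomes was not tested.

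Several values are uncertain because reads can be shared. Pseudogenes of ribosomal proteins, near copies of the spliced mRNAs, held 0.293 to 0.520% of counts. Of 223 tested pseudogenes, 10 rose and 63 fell with activin (4.48 and 28.3%, beside 9.58 and 8.41% of all tested genes). With HGF, 77 rose and 4 fell (34.5 and 1.79%, beside 7.41 and 5.45%; median log2 fold change 1.21). Reads of the parent gene assigned to a copy cannot be told apart from transcription of the copy. The readthrough genes RPL17-C18orf32, RPL36A-HNRNPH2 and RPS10-NUDT3 overlap RPL17, RPL36A and RPS10 and held 795 to 4861, 0 to 1421 and 2173 to 13211 counts. Whether the counting used strand is not given in the sources used here.

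Several members carry snoRNAs in their introns, and 44 such rows were in the table. Of these, 14 held exactly 1 count in all 9 libraries, and 21 were tested. With HGF, 2 were called higher (9.52%, beside 7.41% of all tested genes) and 0 lower, and 8 were called higher and 0 lower against NC (38.1%, beside 16.4%). The former were SNORA33 in RPS12 (log2 fold change 2.16, SE 0.56, adjusted p = 0.0331) and SNORD36A in RPL7A (4.93, SE 0.91, adjusted p = 0.0104). SNORD36A held 1 count in each NC library, 1, 1 and 12 with activin and 190, 100 and 71 with activin + HGF, whereas its host RPL7A was not called with HGF (log2 fold change 0.66, SE 0.21, adjusted p = 0.0610). The 44 rows summed to 2552 counts in activin + HGF replicate 1 and to 719 and 725 in the others of that group, the library that also held the highest values of most members, and their part in the result was not tested.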

How the data were processed

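HCT116 libraries were grouped by the treatment tags, with doses and days from the labels. The authors deposited raw counts per gene and FPKM of 33861 genes, the latter scaled by the authors for depth and for a length per gene. The submitters' processing notes name cutadapt 1.9, HISAT2 2.0.4 and StringTie 1.3.4d. The build is not given in the sources used here, and 19821 of 32930 genes found in GENCODE 29 had identical starts and ends (GRCh38). Columns were matched to libraries through the sample descriptions alone. The columns of the activin + HGF group carry the plain name of the line with no mark of treatment, and every comparison with that group rests on this match.

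Counts were tested with edgeR 4.0.16 in R 4.3.3 (filterByExpr, TMM, glmQLFit, glmQLFTest, a mean per group, all 9 libraries, no block). SE is the log2 fold change over the square root of F. Paralogue ratios were taken as log2(FPKM + 0.1) and compared by exact permutation tests in scipy 1.17.1. The test was tried on simulated data. Coding lengths are those of GENCODE 29 principal transcripts.

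The members and gene lists were chosen with earlier results of these data known. The genes named were up to 10 called members with the largest change in each direction, paralogue pairs, the stalk proteins, RPSA, RPL5, RPL11, RPS6, the 5 highest and lowest by FPKM, members left out by the filter, and up to 3 called genes per list and direction. RPS26, RPL10 outside its pair, RPL15, RPL29, MYC, MTOR, LARP1 and members listed by pattern were named after their values were seen. A few genes the rule would name are left unreported. Samples with the same replicate number did not deviate together (correlations -0.0606 to 0.0882 over 9 pairs), so no pairing by number was used. Such correlations cannot tell whether samples with the same number were handled together. The counts of libraries of 1 group differed by more than counting error (a chi-square of 54.9 to 249 times its degrees of freedom).

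Alternatives were other scalings, filters, DESeq2 1.42.0, limma 3.58.1 on log2 FPKM, a replicate block, only the groups compared, stricter thresholds and single libraries left out. Scaling by totals of nuclear protein-coding genes was added after the data were seen.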

Additional observations from a re-analysis of the deposited data

How the results depend on the processing

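No median, paralogue ratio or called gene reversed in sign under an alternative, except the median of the activin step (-0.10, no test), which was 0.05 without activin replicate 1 and as low as -0.28 without activin replicate 2. With 1 library left out at a time, members called higher numbered 0 to 3 with activin, 15 to 73 with HGF and 38 to 60 for activin + HGF against NC, and members called lower numbered 3 to 13, 0 to 0 and 0 to 3. The medians lay between 0.74 and 1.08 with HGF and between 0.65 and 0.88 against NC. The other settings were as follows for members called higher with activin (0 as reported). There was 1 with upper quartile scaling or a CPM of at least 1, 2 with only the groups compared, with totals of nuclear protein-coding genes or with limma on unfiltered FPKM, 3 with DESeq2, 4 with library totals and 5 with limma at each pseudocount (0.1, 1 and 0.01). Members called lower with activin (7) were 3 at an adjusted p under 0.01 and 3 at a fold of at least 2.

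With HGF, the members called higher (59) were 21 with only the groups compared and at an adjusted p under 0.01, 33 at a fold of at least 2 and 32 with limma on unfiltered FPKM. The median (0.91) was 0.56 with library totals and with totals of nuclear protein-coding genes, 0.53 with limma at pseudocounts of 0.1 and 0.01, and 0.52 with a pseudocount of 1 or unfiltered FPKM. For activin + HGF against NC, members called higher (53) were 35 with limma on unfiltered FPKM and at an adjusted p under 0.01, and 28 at a fold of at least 2. Members called lower (2) were 1 with median-of-ratios size factors, no filter or the replicate block, 5 with library totals, totals of nuclear protein-coding genes or limma under all 4 FPKM settings, and 0 at an adjusted p under 0.01 or a fold of at least 2. The median (0.79) was 0.51 with library totals, 0.44 with totals of nuclear protein-coding genes, 0.48 with limma at each pseudocount and 0.47 on unfiltered FPKM. As a share of summed FPKM the members took 5.56% in NC, 5.44% with activin and 7.94% with activin + HGF. The cause of these shifts was not tested, other than those from stricter thresholds. The counts in this section are of members only, without the share over all tested genes under the same setting. With the replicate block, for which the correlations above showed no need, 0 members were higher and 5 lower with activin. With this block 52 were higher with HGF, and 49 were higher and 1 lower against NC. Precision is limited by 3 libraries per group, and for RPL3L and RPL39L also by their low counts.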
